A study of Mus musculus with 71 samples.

Results

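Reg1, Reg3a, Reg3b, Reg3g, and Reg4 are 5 mouse genes for secreted C-type lectins, and their RNA was followed along the intestine of mice with and without Btnl2. The genes were taken by name, and all 5 were found among the 24475 gene identifiers of 3 tables of RNA-sequencing counts that hold 65 libraries. Intestinal epithelial cells (IECs; 16 libraries) and γδ intraepithelial lymphocytes (γδ IELs, T cells that live between the epithelial cells; 22 libraries) were each prepared from duodenum, jejunum, and ileum, and whole tissue (27 libraries) was taken from small intestine and colon. Btnl2-KO mice carry a LacZ cassette inserted at the start codon of Btnl2, a butyrophilin-like gene of gut epithelium, with a selection cassette behind it that makes the allele null, on a C57BL/6 background, and their controls were WT littermates kept in the same cages. Btnl2-KO mice carry the null allele in every cell. The study describes the γδ IEL mice as at steady state, and the titles name no challenge for any library. Mice were 7 weeks old for IECs and 10 weeks old for γδ IELs by the labels, which give no number for the tissue libraries beyond calling them young. There were 2 Btnl2-KO and 3 WT libraries of duodenal IECs, 3 and 3 of jejunal IECs, and 3 and 2 of ileal IECs. For γδ IELs, the duodenum gave 3 and 4, the jejunum 4 and 4, and the ileum 3 and 4, each library a pool of 2 mice. Small intestine tissue gave 7 and 7 libraries and colon tissue 7 and 6. IECs were the top layer of a density gradient after the epithelium was shaken off in EDTA, so this fraction was enriched but not sorted, whereas γδ IELs were sorted by flow cytometry. Nothing in the labels says which libraries came from the same mouse.

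Reg lectins are small proteins that epithelial cells release into the gut lumen. Reg3b and Reg3g bind bacterial surfaces and keep bacteria away from the mucosa, and both are turned on by microbial signals through Myd88 and by interleukin-22 through Stat3. Reg1 was first known from the pancreas, whose acinar cells make it in large amounts. Reg3a is the mouse namesake of the human gene for the lectin HIP/PAP, and Reg4 is a more distant member that is made mainly by goblet, deep crypt secretory, and enteroendocrine cells.

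4 of the genes lie together on chromosome 6 of the GRCm38.p6 assembly, Reg3b at chr6:78370885-78373466, Reg3a at chr6:78380709-78383839, and Reg1 at chr6:78425983-78428668 on the plus strand, and Reg3g at chr6:78466269-78468874 on the minus strand. Reg4 is alone on chromosome 3, at chr3:98222138-98236748 on the plus strand. The promoters of the 4 clustered genes are shown because 2 of them, Reg3b and Reg3g, moved together in the libraries and the other 2 did not follow them. Each is the 250 bases 5′ of the RefSeq start (GRCm38.p6), written 5′ to 3′ along the gene. The windows are chr6:78370635-78370884 (plus) for Reg3b, chr6:78468875-78469124 (minus) for Reg3g, chr6:78425733-78425982 (plus) for Reg1, and chr6:78380459-78380708 (plus) for Reg3a. Capitals mark matches to any of 5 motifs searched on both strands.
Reg3b: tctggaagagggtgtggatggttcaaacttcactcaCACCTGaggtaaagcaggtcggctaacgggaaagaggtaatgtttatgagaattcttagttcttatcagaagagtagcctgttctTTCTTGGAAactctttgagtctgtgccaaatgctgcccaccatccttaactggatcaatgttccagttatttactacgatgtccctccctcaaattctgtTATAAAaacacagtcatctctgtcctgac
Reg3g: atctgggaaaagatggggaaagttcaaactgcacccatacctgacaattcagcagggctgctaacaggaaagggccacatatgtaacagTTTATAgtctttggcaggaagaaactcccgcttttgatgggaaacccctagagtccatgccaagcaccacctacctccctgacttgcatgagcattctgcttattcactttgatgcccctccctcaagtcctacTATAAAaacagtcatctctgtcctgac
Reg1: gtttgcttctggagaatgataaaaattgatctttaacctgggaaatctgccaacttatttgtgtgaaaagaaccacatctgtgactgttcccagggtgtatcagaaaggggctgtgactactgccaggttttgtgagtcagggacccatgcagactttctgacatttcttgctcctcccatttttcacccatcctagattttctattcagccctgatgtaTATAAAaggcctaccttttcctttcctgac
Reg3a: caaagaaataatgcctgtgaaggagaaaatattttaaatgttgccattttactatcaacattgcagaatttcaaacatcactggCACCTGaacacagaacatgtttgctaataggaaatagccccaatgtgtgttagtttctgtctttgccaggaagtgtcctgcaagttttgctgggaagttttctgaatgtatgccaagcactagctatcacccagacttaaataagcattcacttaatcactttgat
The motifs were the TATA box TATAAA (in 13% of 27025 RefSeq promoter windows of the same length), the STAT-type palindrome TTCNNNGAA (7.18%), the GATA motif AGATAA (10.3%), the nuclear receptor half-site AGGTCA (13.8%), and the E-box CACCTG (17.1%), none of which overlapped another match. Reg3b, Reg3g, and Reg1 each held TATAAA within 30 bases of the start, which Reg3a and Reg4 did not. TTCNNNGAA was found in Reg3b alone, from 129 to 121 bases before its start. CACCTG was found in Reg3b, Reg3a, and Reg4, AGATAA in Reg4, and AGGTCA in none of the 5 windows. The Reg4 window, not shown, is chr3:98221906-98222155 (plus), and its end lies inside the gene as placed above. These matches describe letters in the windows and not binding. The Reg3b and Reg3g windows were identical at 68.38% of 253 aligned positions, whereas the other 9 pairs of windows lay between 44.9 and 49.5%. The longest coding transcripts of Reg3b and Reg3g were identical at 67.73% and shared 5 of 753 windows of 31 bases, which may overlap one another. They shared 0 windows of 50 bases, and no other pair of the 5 genes shared a window of 31 bases.

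The libraries held 13444958 to 38258472 counts each, so that 3 counts, the floor used here, correspond to 0.0778 to 0.252 CPM, the read count relative to the library size after TMM scaling. Intervals and floors from counts cover counting error only. No 2 libraries of a group agreed within sampling noise. Btnl2 was 0.675 to 2.44 CPM in Btnl2-KO and 23.9 to 103 CPM in WT small intestine tissue, and at most 0.0452 against 0.651 to 2.40 CPM in colon tissue. In IECs it was 25.1 to 67.7 CPM in WT libraries, and 3 libraries labelled Btnl2-KO stood apart. The library labelled duodenal Btnl2-KO replicate 1 held 5.45 CPM of Btnl2 and 220.3 CPM of Fabp6, the ileal bile acid binding protein, against 0.347 to 6.58 CPM of Fabp6 in WT duodenal IECs. The library labelled ileal Btnl2-KO replicate 1 held 0.231 CPM of Fabp6 against 586 and 579.7 in WT ileal IECs, and 153 CPM of Gata4, a factor of proximal epithelium. The library labelled jejunal Btnl2-KO replicate 2 held 19.5 CPM of Btnl2, and the other Btnl2-KO IEC libraries 0.342 to 0.595. The segment comparisons below therefore rest on WT libraries. Of the small intestine tissue libraries, Btnl2-KO replicate 1 and WT replicate 5 held 95.6 and 82.7 CPM of Gata4, against at most 15.1 in the other 12. The RNA of bulk libraries cannot tell fewer cells of a type from less RNA per cell, which holds for every result here.

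In WT IECs, Reg1 fell steeply along the small intestine, while Reg3b and Reg3g rose from duodenum to ileum. Reg1 was 190.0, 151, and 98.1 CPM in the 3 duodenal libraries, 14.4, 21.1, and 15.7 CPM in the 3 jejunal libraries, and 1.24 and 1.64 CPM in the 2 ileal libraries. The segments did not overlap at either step. From duodenum to jejunum the log2 fold change was -3.08 ± 0.299 (SE, FDR 0.00974), from duodenum to ileum -6.66 ± 0.44 (SE, FDR 0.00229), and from jejunum to ileum -3.57 ± 0.279 (SE, FDR 0.00128), by edgeR's quasi-likelihood test with Benjamini-Hochberg adjustment over all genes tested. Pancreatic acinar markers did not follow this slope. The summed level of the 21 markers was 30.4 to 92.7 CPM in duodenal, 60.4 to 72.5 in jejunal, and 46.6 to 47.4 in ileal WT IECs, and the chymotrypsinogen gene Ctrb1 was at most 2.00 CPM. With the acinar markers as a covariate, the fold change of Reg1 from duodenum to ileum was -6.50 (FDR 0.000245).

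Reg3b was 1404, 1322, and 2522 CPM in duodenal, 3388, 2082, and 2725 CPM in jejunal, and 5095 and 5550.3 CPM in ileal WT IECs. Both ileal libraries were above every other WT library, and the duodenal and jejunal ranges overlapped. Reg3g followed the same order with a clear gap at each step, at 544, 363, and 696 CPM, 1499, 1213, and 1251 CPM, and 2633 and 3202 CPM. Reg3b rose from duodenum to ileum by a log2 fold change of 1.62 ± 0.329 (SE, FDR 0.0431) and Reg3g by 2.46 ± 0.311 (SE, FDR 0.00979). The steps in between were not called, with Reg3g at 1.32 ± 0.277 (SE, FDR 0.123) from duodenum to jejunum and 1.15 ± 0.225 (SE, FDR 0.0613) from jejunum to ileum. Reg3b was at 0.66 ± 0.326 (SE, FDR 0.466) and 0.97 ± 0.273 (SE, FDR 0.217) in the same steps. Goblet cell markers rose in the same libraries, with 3 of 7 called higher from duodenum to ileum, Muc2 (2.32), Spdef (1.42), and Agr2 (1.35), and 0 lower. Over all genes, 2.78% were called higher and 1.64% lower. Their summed level was 8322 to 9769 CPM in duodenal, 9308 to 11299.8 in jejunal, and 16806 to 17941 in ileal WT IECs, with none at 0. Of 11 enterocyte markers, 4 were called lower, beside the same 1.64% of all genes. Enterocyte sums were 8517 to 13448, 4224 to 10215, and 4545 to 5225 CPM, also with none at 0. The part of either marker list in the rise of Reg3b and Reg3g was not tested. The ratio of Reg3g to Reg3b, both per kilobase of transcript, was 0.279 to 0.394 in duodenal, 0.450 to 0.591 in jejunal, and 0.525 to 0.586 in ileal WT IECs, so that the duodenal libraries lay below the others. Reg3b and Reg3g values were not whole numbers in 16 of 16 IEC libraries, so the authors' estimation shared out some reads between genes. Which genes shared them, and how many reads, is not known, so the uncertainty of this ratio is not known either.

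Reg4 was 99.7, 188, and 70.3 CPM in duodenal, 56.5, 80.0, and 48.1 CPM in jejunal, and 29.2 and 29.9 CPM in ileal WT IECs. Duodenal and jejunal libraries overlapped, and both ileal libraries were below them. The log2 fold change from duodenum to ileum, -2.01 ± 0.44 (SE, FDR 0.0563), missed the threshold, and those of the single steps were -0.93 ± 0.366 (SE, FDR 0.412) and -1.06 ± 0.231 (SE, FDR 0.0909). Without duodenal WT replicate 2, the highest for Reg4, the change from duodenum to ileum was called at -1.51 (FDR 0.000335), and without replicate 3 at -2.25 (FDR 0.0402). Reg3a was 33.7, 117, and 42.4 CPM in duodenal, 20.9, 39.5, and 25.5 CPM in jejunal, and 29.1 and 25.5 CPM in ileal WT IECs, with a log2 fold change of -1.23 ± 0.546 (SE, FDR 0.328) from duodenum to ileum. Every duodenal library was above both ileal ones, but the change was not called, and the jejunum overlapped both. Per kilobase, the medians in WT duodenal IECs ran from Reg3b (1794 CPM per kilobase) over Reg3g (706), Reg1 (167), and Reg4 (97.7) to Reg3a (51.4), with the last 3 overlapping each other. In the jejunum the order was Reg3b (3480.0), Reg3g (1623), Reg4 (55.4), Reg3a (30.9), and Reg1 (17.4), where Reg4 and Reg3a overlapped. In the ileum it was Reg3b (6798), Reg3g (3785), Reg3a (33.1), Reg4 (29.0), and Reg1 (1.59), with no overlap between neighbours in these 2 libraries. Reg2 and Reg3d, the other Reg genes of the chromosome 6 cluster, reached at most 7 counts in any IEC library.

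**Figure D1:**
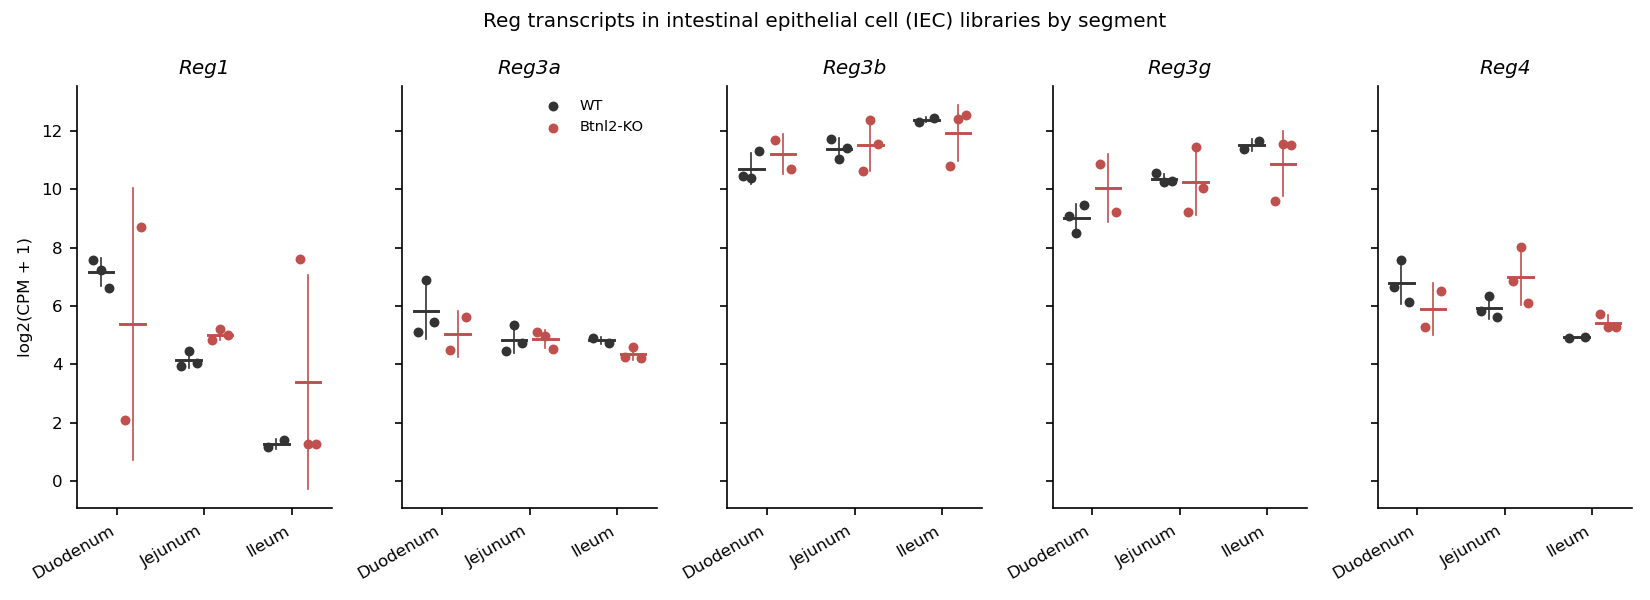
Level of each Reg gene in IEC libraries, as log2(CPM + 1), by segment and genotype. Points are libraries, horizontal bars are means, and vertical lines are standard deviations. WT Reg1 steps down from duodenum to ileum and WT Reg3b and Reg3g step up, while single Btnl2-KO libraries lie far from the rest of their group.

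Of the 5 genes, 1 was called lower from duodenum to jejunum, where 0.32% of all genes tested were called and 0.152% lower. From duodenum to ileum, 2 were called higher and 1 lower, against 4.42% of all genes (2.78% higher and 1.64% lower). From jejunum to ileum, 1 was called lower, against 1.13% of all genes and 0.357% lower. With groups of 2 and 3 libraries, single libraries decided several of these calls. Reg1 from duodenum to jejunum lost its call without duodenal WT replicate 1 or jejunal WT replicate 1 or 3 (FDR 0.0702 to 0.118, log2 fold change -3.03 to -2.85). Reg3b and Reg3g lost theirs from duodenum to ileum without duodenal WT replicate 1 or either ileal library (FDR 0.192 to 0.203 and 0.0586 to 0.0662), which leaves Reg1 as the 1 gene called, while the fold changes kept their sign. Fitting WT and Btnl2-KO IEC libraries together, with 1 estimate of the spread, called 0 genes of any kind between WT segments, and none of these calls held (FDR 0.386, 0.165, and 1 for Reg1 in the 3 comparisons, and 0.155 for Reg3b and Reg3g from duodenum to ileum). That fit includes the libraries labelled duodenal and ileal Btnl2-KO replicate 1, whose Fabp6 was unlike that of their segment. Their part in the lost calls was not tested. DESeq2 called more, with Reg3g higher at both steps (FDR 0.000819 and 1.9e-07).

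In whole tissue, Reg3a, Reg3b, and Reg3g were at or near 0 in the colon, whereas Reg4 was present in both organs. Reg3b was 1289 to 8559.7 CPM in 7 WT small intestine libraries (median 2564) and 0.431 to 1.32 CPM in 6 WT colon libraries (8 to 22 counts). Reg3g was 460.5 to 4422 CPM (median 976) and 0.329 to 0.602 CPM (7 to 10 counts). Every small intestine library was far above every colon library for both genes. The log2 fold changes from small intestine to colon were -12.05 ± 0.671 (SE, FDR 4.93e-09) for Reg3b and -11.80 ± 0.74 (SE, FDR 1.57e-08) for Reg3g. Reg3a was 16.8 to 42.9 CPM (median 29.1) in the small intestine, and the 6 colon libraries held 1 count of it in all. Scaled to the counts sequenced, this is a ratio of 3078 (exact 95% interval 552 to 121600) in WT mice and of 4095 (734 to 161764) in Btnl2-KO mice, whose 7 colon libraries also held 1 count. In Btnl2-KO mice, Reg3b had a log2 fold change of -11.92 ± 1.11 (SE, FDR 2.28e-07) and Reg3g of -11.39 ± 0.923 (SE, FDR 4.42e-08). The 3 genes were called lower in the colon of both genotypes, and in WT mice 27.6% of all genes were called (15.6% lower) and in Btnl2-KO mice 30.2% (15.7% lower). They kept their calls under every alternative listed in the closing section.

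Reg1 in the colon was found in 2 libraries alone. WT replicate 1 held 24.1 CPM (513 counts) and Btnl2-KO replicate 5 held 23.7 CPM (412 counts), and the other 11 colon libraries held 0 counts. The same 2 libraries held 189 and 256 CPM of Ctrb1, against at most 0.335 CPM in the other colon libraries, and their summed acinar markers were 1727 and 2474 CPM. In the small intestine, Reg1 was low and even, at 0.723 to 1.90 CPM (median 1.36) in WT and 0.930 to 2.02 CPM (median 1.06) in Btnl2-KO libraries. This is near the level of WT ileal IECs and below the jejunal and duodenal ones, though the 2 tables were normalized separately. With all libraries, Reg1 had log2 fold changes from small intestine to colon of 1.54 ± 1.23 (SE, FDR 0.323) in WT and 1.47 ± 1.24 (SE, FDR 0.342) in Btnl2-KO mice. Without the colon library that holds Ctrb1, 5 WT and 6 Btnl2-KO colon libraries remain, all at 0 counts. Against a floor of 3 counts over each such group, scaled to the counts sequenced, Reg1 was at least 40.2-fold (WT) and 36.6-fold (Btnl2-KO) higher in the small intestine (edgeR FDR 4.74e-06 and 3.06e-06), so a single library turned the direction in each genotype.

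Reg4 spread more widely within the small intestine than between the organs. It was 41.1 to 3448 CPM in WT small intestine (median 524) and 54.6 to 329 CPM in WT colon (median 291). In Btnl2-KO mice it was 78.0 to 1834 CPM (median 124) and 139 to 1727 CPM (median 315). The organs overlapped in both genotypes, and the log2 fold changes from small intestine to colon were -1.75 ± 0.83 (SE, FDR 0.098) and -0.09 ± 0.846 (SE, FDR 0.937). Without WT small intestine replicate 5, one of the libraries high in Gata4, the WT change was called at -1.97 (FDR 0.0451). Goblet cell markers summed to 9023 to 25757 CPM in WT small intestine and 18788 to 42021 CPM in WT colon, and the part of goblet cells in the spread of Reg4 was not tested.

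**Figure D2:**
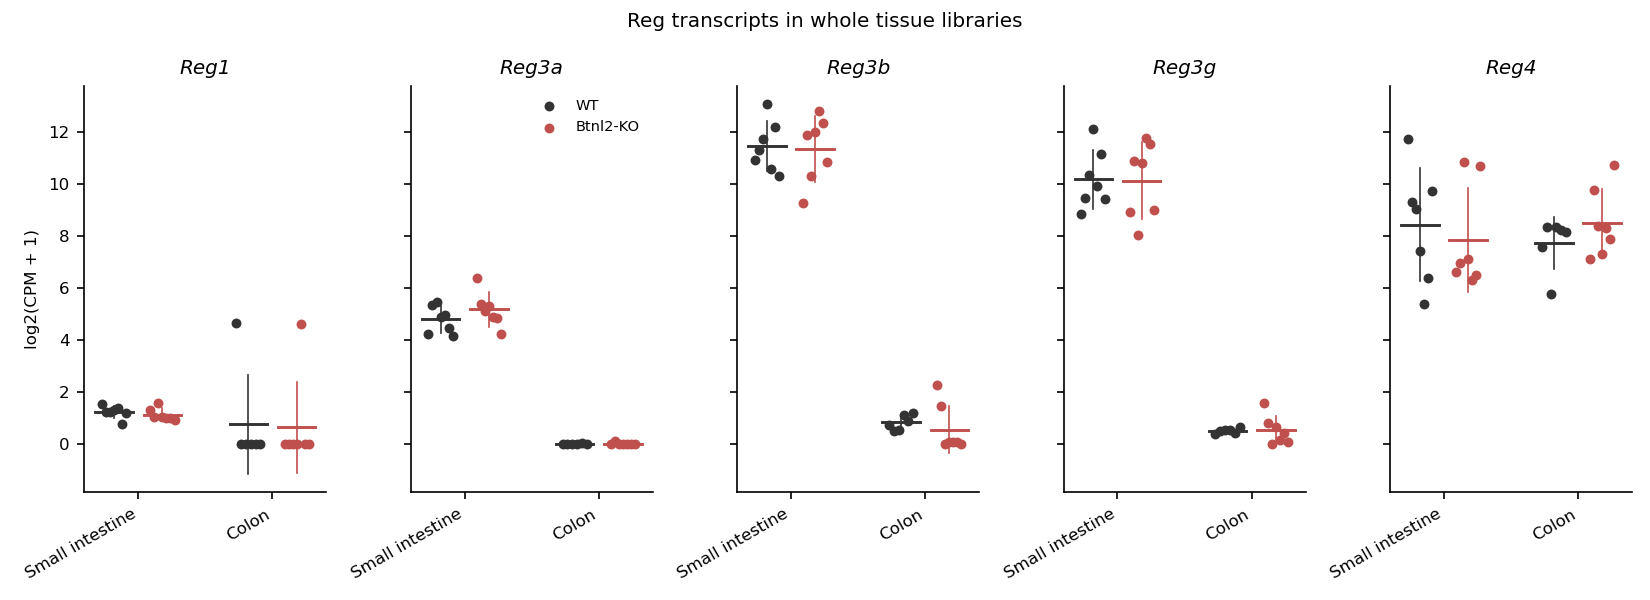
Level of each Reg gene in whole tissue libraries, as log2(CPM + 1), by organ and genotype. Points are libraries, horizontal bars are means, and vertical lines are standard deviations. Reg3a, Reg3b, and Reg3g lie near 0 in colon, Reg1 is at 0 in all colon libraries except 1 of each genotype, and Reg4 overlaps between the organs.

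Across the 14 small intestine tissue libraries, Reg3b and Reg3g varied together, and Reg4 went against Reg3g on the log scale with all libraries. On log2(CPM + 1) values centred within each genotype, Reg3b and Reg3g had a Pearson r of 0.891 and a Spearman rho of 0.908 (permutation test with 100000 resamples, two-sided p adjusted over 10 pairs 0.0018 and 0.0007). Without the 2 libraries farthest from the median of Reg3b, r was 0.906 (adjusted p 0.0039). Without the 2 libraries high in Gata4, it was 0.954 (adjusted p 0.0003). Reg3g and Reg4 had an r of -0.693 (p 0.00906, adjusted p 0.0453) and a rho of -0.679 (adjusted p 0.0565). Without the 2 farthest libraries r was -0.618 (adjusted p 0.112), so its place past the threshold rests on those libraries. On CPM without the log, r was -0.533 (adjusted p 0.239), and on the log scale without the 2 high in Gata4 it was -0.931 (adjusted p 0.00155). Reg3b and Reg4 had an r of -0.361 (adjusted p 0.312; rho -0.429, adjusted p 0.282) with all libraries and -0.857 (adjusted p 0.00653) without the 2 high in Gata4. The other 7 pairs had adjusted p of at least 0.0918. The mixture of cell types can differ between libraries of an organ, and its part in these correlations was not tested. The part of the tissue cut from each mouse was not given.

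Reg4 was by far highest in 3 small intestine libraries, with 3448 CPM in WT replicate 1, 1834 CPM in Btnl2-KO replicate 3, and 1643 CPM in Btnl2-KO replicate 7. Reg3g was 460.5, 262, and 511 CPM in the same libraries, and Reg3b 1959, 1274, and 1846 CPM. Among them are the lowest Reg3g of the WT and of the Btnl2-KO libraries. Retnlb, a goblet cell product with antibacterial activity, was 156, 22.4, and 51.4 CPM there, and its part in the spread of Reg4 was not tested. In the colon, Btnl2-KO replicate 7 combined the highest Reg4 (1727 CPM) with 629 CPM of Retnlb. The ratio of Reg3g to Reg3b per kilobase ranged from 0.239 to 0.644 in WT and from 0.209 to 0.805 in Btnl2-KO small intestine. Values of each gene were not whole in 14 of the 27 tissue libraries, so some reads were shared out between genes here too. The uncertainty of this ratio is therefore not known, and the part of the sharing in the correlation of Reg3b and Reg3g was not tested.

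**Figure D3:**
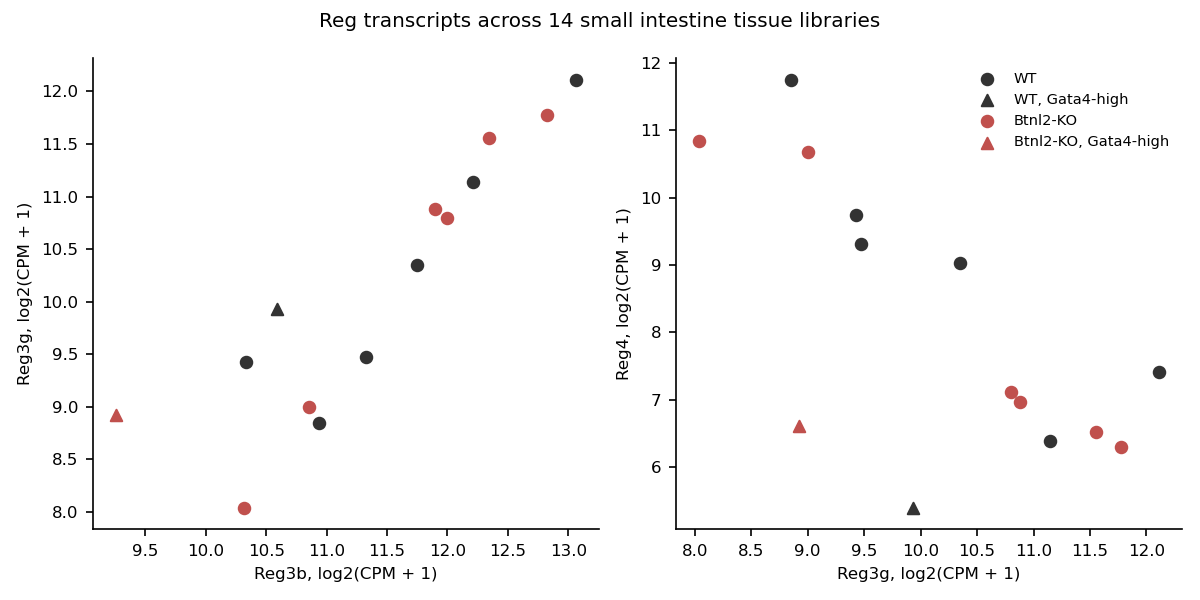
Pairs of Reg genes across the 14 small intestine tissue libraries, as log2(CPM + 1). Points are libraries coloured by genotype, and triangles are the 2 libraries high in Gata4. Reg3b and Reg3g climb together (r 0.891), and Reg4 tends to be lower where Reg3g is higher (r -0.693). The second relation missed the threshold by rank, on raw CPM, and without the 2 farthest libraries. Both r are from values centred within genotype, whereas the points are not centred.

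The genes whose pattern was most like each Reg gene differed between the family members. Likeness was Pearson's r of log2(CPM + 1) over the 14 small intestine libraries, centred by genotype, among genes with a mean of at least 5 CPM. It is a description across libraries whose mixture of cell types can differ. Reg3g was most like Tlr1, a receptor for bacterial lipoproteins (r 0.925), Nfkbiz, a nuclear regulator of NF-κB targets (r 0.902), and Reg3b (r 0.891). Reg3b was most like Arhgef10l (r 0.941), Golm1 (r 0.940), and Blnk, an adaptor of B cell receptor signalling (r 0.932). Reg4 was most like Tpsg1, a mast cell tryptase (r 0.956), Pde2a (r 0.954), and Pam, an enzyme that amidates peptide hormones (r 0.954). Reg3a was most like Cat, which encodes catalase (r 0.947), Ddhd2 (r 0.930), and Cyp27a1, a sterol hydroxylase of bile acid synthesis (r 0.927). Reg1 was most like Ccdc25 (r 0.858), Lrp5 (r 0.857), and Yif1a (r 0.853), at levels of 1 to 2 CPM, where counting error is large. Over the 16 IEC libraries, where segments differ, Reg3b was most like Reg3g (r 0.965), and Reg3g most like Zc3h12a, an RNase that degrades inflammatory mRNAs (r 0.974). Genes whose pattern was like that of Reg1 there included Arg2, the mitochondrial arginase (r 0.956), and Slc1a3 (r 0.954).

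In the γδ IEL libraries, Reg transcripts were present in every segment. As in WT IECs, the medians of Reg1 were highest in the duodenum and those of Reg3b and Reg3g in the ileum, whereas Reg4 had its highest median in the ileum here and its lowest there. These libraries also held other epithelial transcripts. Their 12 pan-epithelial markers summed to 3370.3 to 5268 CPM in duodenal, 2319 to 5602 in jejunal, and 3632 to 8862 in ileal WT libraries, with none at 0, against 8699 to 12000.2 CPM in WT IECs. The 6 Paneth cell markers summed to 1254 to 5952, 757 to 7721, and 8642 to 31174 CPM. The 12 markers of γδ IEL identity summed to 38477 to 103082 CPM over all 22 libraries, none at 0. Which cells in these libraries carried the Reg transcripts was not tested.

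Reg1 was 811, 525, 202, and 345 CPM in the 4 duodenal WT libraries, 1.59, 12.5, 18.3, and 5.23 CPM in the jejunal ones, and 0.775, 3.37, 3.80, and 1.75 CPM in the ileal ones. Every duodenal library was far above all others, and jejunum and ileum overlapped. The log2 fold changes were -5.65 ± 0.702 (SE, FDR 0.00418) from duodenum to jejunum and -7.62 ± 0.575 (SE, FDR 6.47e-05) from duodenum to ileum, and -1.96 ± 0.694 (SE, FDR 0.0514) from jejunum to ileum. With the mean of the pan-epithelial markers as a covariate, the first of these were -5.60 (FDR 0.00372) and -8.72 (FDR 2.56e-06), and both remained called. Of the acinar markers tested from duodenum to jejunum, Sycn alone was called, lower at -2.33 (FDR 0.0425). The others ran from -1.21 to 1.22. No acinar marker was called from duodenum to ileum, where Sycn was at -0.89 (FDR 0.69). Mean Reg1 was 471 CPM in duodenal WT γδ IELs and 146 CPM in duodenal WT IECs, from tables normalized separately. Whether acinar RNA carried Reg1 here was not tested. Reg3b was 338, 218, 273, and 389.7 CPM in duodenal, 75.9, 548, 577, and 379.9 CPM in jejunal, and 481, 1506, 2041, and 4962 CPM in ileal WT libraries. Reg3g was 174, 131, 149, and 286 CPM, 100.5, 365, 428, and 257 CPM, and 428, 1164, 1444, and 4777 CPM. For both, the ileum lay above the duodenum without overlap, and the lowest ileal library overlapped the jejunum. The log2 fold changes from duodenum to ileum were 2.88 ± 0.548 (SE, FDR 0.0168) and 3.40 ± 0.613 (SE, FDR 0.0125), and from jejunum to ileum 2.51 ± 0.715 (SE, FDR 0.0225) and 2.77 ± 0.68 (SE, FDR 0.0124). With the pan-epithelial covariate, the change from duodenum to ileum was 2.08 (FDR 0.162) for Reg3b and 2.82 (FDR 0.102) for Reg3g, no longer called. From jejunum to ileum the covariate took the call of Reg3b (1.96, FDR 0.0922) and gave one to Reg1 (-2.19, FDR 0.0419), and from duodenum to ileum it gave one to Reg3a (-1.44, FDR 0.0223).

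Reg3a was 48.3, 37.8, 15.2, and 22.8 CPM in duodenal, 6.50, 18.3, 11.2, and 15.7 CPM in jejunal, and 9.89 to 20.6 CPM in the 4 ileal WT γδ IEL libraries, and the segments overlapped. It was called lower in the jejunum than in the duodenum, with a log2 fold change of -1.28 ± 0.378 (SE, FDR 0.0245), a call lost without duodenal replicate 1 or 2 or jejunal replicate 1 or 3 (FDR 0.0552 to 0.0778). Reg4 varied by more than 10-fold within the jejunum, at 7.62, 33.3, 5.92, and 75.5 CPM, and was 86.1, 86.7, 30.5, and 20.4 CPM in the duodenum and 22.2, 229, 59.7, and 117 CPM in the ileum. Its log2 fold change from duodenum to ileum was 0.93 ± 0.618 (SE, FDR 0.705). The ratio of Reg3g to Reg3b per kilobase was 0.523 to 0.744 in duodenal, 0.675 to 1.34 in jejunal, and 0.719 to 0.978 in ileal WT libraries, and the segments overlapped. All values of both genes were whole numbers in this table. Of the 5 genes, 2 were called lower from duodenum to jejunum (23.3% of all genes called, 12.7% lower). From duodenum to ileum, 2 were called higher and 1 lower (2.16% of all genes, 1.15% higher and 1.01% lower). From jejunum to ileum, 2 were called higher (21.7% of all genes, 10.8% higher). Reg3b lost its call from jejunum to ileum without ileal WT replicate 4 (1.78, FDR 0.0638), the library with the most Reg3b, or without jejunal WT replicate 4 (FDR 0.0623). It also lost its call from duodenum to ileum without duodenal WT replicate 1 or 2 (FDR 0.0519 and 0.0599). Without jejunal WT replicate 1, the lowest library of that segment, Reg3b and Reg3g were called higher in jejunum than in duodenum (log2 fold changes 0.70 and 0.90, FDR 0.0473 and 0.0418). With all γδ IEL libraries of both genotypes in 1 fit, Reg1 kept its calls from the duodenum to both other segments and Reg3g from jejunum to ileum, and the other 4 calls were lost (FDR 0.071 to 0.236).

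**Figure D4:**
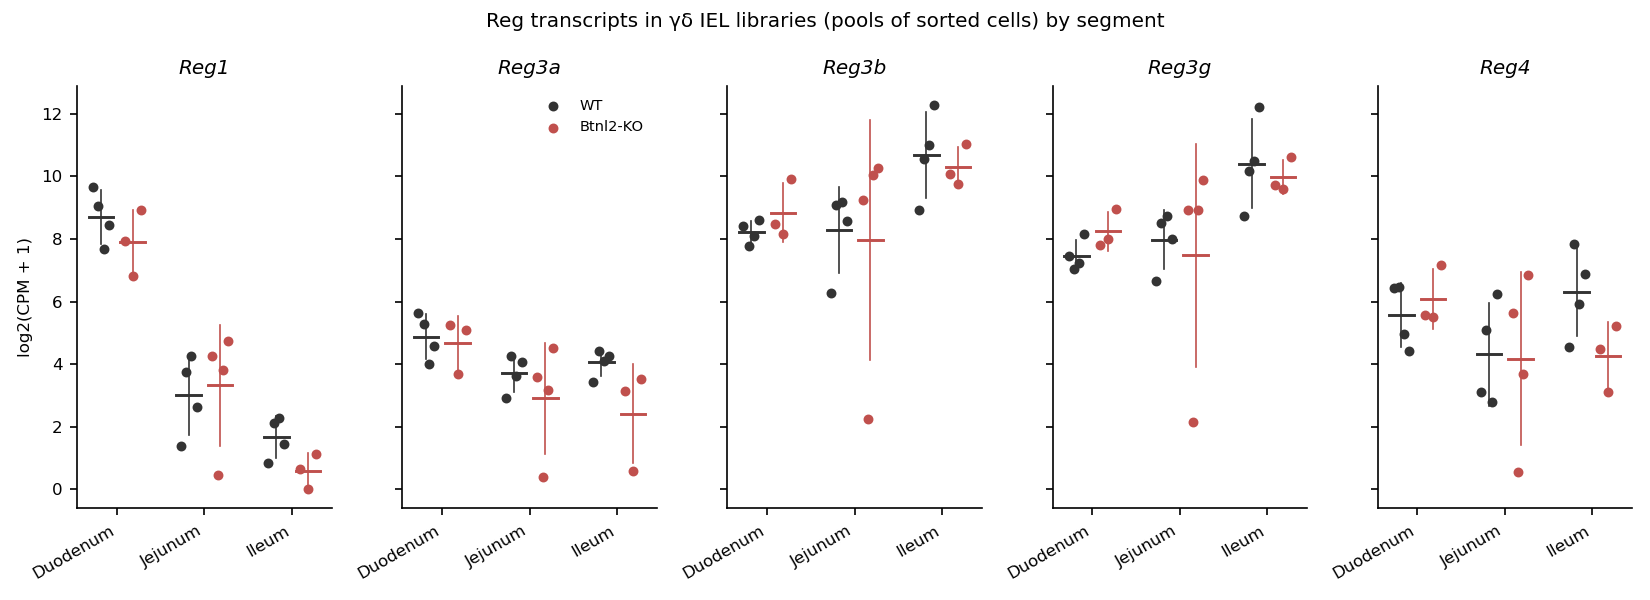
Level of each Reg gene in libraries of sorted γδ IELs, as log2(CPM + 1), by segment and genotype. Points are libraries (pools of 2 mice), horizontal bars are means, and vertical lines are standard deviations. WT Reg1 drops after the duodenum and WT Reg3b and Reg3g are highest in the ileum, and 1 jejunal Btnl2-KO library is low for all 5 genes.

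No Reg gene was called between Btnl2-KO and WT libraries. Over 8 comparisons and 37 tests of a Reg gene, edgeR called 0 at a smallest FDR of 0.372, and DESeq2 also called 0. An unadjusted p below 0.05 was found for 8, with 1 in duodenal, 2 in jejunal, and 2 in ileal IECs (1.22, 8.4, and 2.07% of all genes), 2 in duodenal and 1 in ileal γδ IELs (2.07 and 8.79%), and 0 in small intestine tissue (23%), colon tissue (4.14%), and jejunal γδ IELs (6.38%). Over all genes, edgeR called 0.0202% of those tested in small intestine tissue, 0.0269% in colon tissue, 0, 0, and 0.00774% in duodenal, jejunal, and ileal IECs, and 0.00789, 0.00794, and 0% in duodenal, jejunal, and ileal γδ IELs. DESeq2 called more, with 184 genes in small intestine tissue against 3 by edgeR, 227 in ileal γδ IELs against 0, and at most 9 in each of the other 6 comparisons. In small intestine tissue, Reg3b was 611 to 7252 CPM (median 3806) in Btnl2-KO mice, Reg3g 262 to 3505 CPM (median 1780.2), and Reg3a 18.1 to 84.1 CPM (median 34.3), all overlapping the WT ranges above. The log2 fold changes from WT to Btnl2-KO were -0.01 ± 0.518 (SE, FDR 0.99), 0.07 ± 0.605 (SE, FDR 0.953), and 0.45 ± 0.304 (SE, FDR 0.372). Reg1 was at -0.18 ± 0.222 (SE, FDR 0.627) and Reg4 at -0.53 ± 0.998 (SE, FDR 0.768), the least certain of the 5. The wide ranges within each genotype left standard errors of 0.518 for Reg3b and 0.605 for Reg3g on the log2 scale. A call needs a change of several standard errors, so changes well above these values could go undetected with 7 libraries a group. In the colon, 2 of the 5 genes had enough counts to be tested, with Reg4 at 1.14 ± 0.588 (SE, FDR 0.972) and Reg3b at 0.08 ± 0.891 (SE, FDR 0.995).

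In jejunal IECs, Reg1 was 27.5, 35.8, and 31.4 CPM in Btnl2-KO and 14.4, 21.1, and 15.7 CPM in WT libraries. The groups did not overlap, and the log2 fold change was 0.88 ± 0.179 (SE, FDR 0.568), not called, where 17.9% of 11480 genes with a mean of at least 1 CPM did not overlap either. Reg4 was 116, 256, and 68.0 CPM in Btnl2-KO libraries, with a log2 fold change of 1.24 ± 0.427 (SE, FDR 0.568). Reg3b was 1559.8, 5299.8, and 2970.2 CPM and Reg3g 599, 2775, and 1063 CPM, with fold changes of 0.25 ± 0.409 (SE, FDR 0.84) and 0.14 ± 0.472 (SE, FDR 0.924). The second value of each gene is from the library labelled Btnl2-KO replicate 2, which held 19.5 CPM of Btnl2. Without it the log2 fold changes were 0.80 for Reg1, 0.59 for Reg4, -0.26 for Reg3b, and -0.66 for Reg3g (FDR 0.667 to 0.813), so that Reg3b and Reg3g turned in sign. In ileal IECs, the library labelled Btnl2-KO replicate 1 held 196 CPM of Reg1 against 1.42 and 1.43 in the other two, and 1794 CPM of Reg3b against 5462 and 5888. These values lay within or near the range of WT duodenal IECs, whereas Reg3a (18.1 CPM) and Reg4 (51.7 CPM) of this library were below every WT duodenal library. The log2 fold change of Reg1 was 5.55 ± 2.59 (SE, FDR 0.9) with this library and -0.02 without it. Reg3a and Reg4 did not overlap between the ileal groups, at 18.1, 23.1, and 17.6 against 29.1 and 25.5 CPM and 51.7, 37.7, and 38.2 against 29.2 and 29.9 CPM, where 20.1% of 11480 genes did not overlap, and their fold changes were -0.47 ± 0.18 (SE, FDR 0.9) and 0.54 ± 0.199 (SE, FDR 0.9). In duodenal IECs, the library labelled Btnl2-KO replicate 1, which held Fabp6, had 3.30 CPM of Reg1 and 1881 CPM of Reg3g, against 412 and 596 CPM in replicate 2. The fold change of Reg1 there was 0.51 ± 1.28 (SE, FDR 1), and 1.49 (FDR 1) without replicate 1. Without replicate 2 it was -5.44 (FDR 0.0503), so the direction turned with the library used, and a lone Btnl2-KO library was assumed to vary like the WT ones.

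In γδ IELs, duodenal Reg3b was 353, 283, and 969 CPM and Reg3g 222, 253, and 495 CPM in Btnl2-KO libraries, which overlapped WT libraries, with log2 fold changes of 0.81 ± 0.367 (SE, FDR 0.997) and 0.81 ± 0.31 (SE, FDR 0.997). In the jejunum, Btnl2-KO replicate 2 was low for all 5 genes, with 3.75 CPM of Reg3b, 3.48 of Reg3g, and 0.383 of Reg1, against 609 to 1247 CPM of Reg3b in the other 3. The same library held 25.9 CPM of Lyz1 and 123 CPM of Epcam, and its summed Paneth cell markers (44.7 CPM) and pan-epithelial markers (966 CPM) were the lowest of all 22 libraries. In the ileum, Reg4 was 21.3, 7.64, and 36.2 CPM in Btnl2-KO against 22.2, 229, 59.7, and 117 CPM in WT libraries, with a log2 fold change of -2.28 ± 0.725 (SE, FDR 0.451). The other 4 genes were at -1.98 to -0.72 (FDR 0.571 to 0.727). Pan-epithelial markers summed to 1183 to 3815 CPM in the ileal Btnl2-KO libraries, against 3632 to 8862 in WT, and with these as a covariate the fold changes of Reg1, Reg3a, Reg3b, and Reg3g were 0.22, 0.13, 0.34, and 0.03 (FDR 0.883 to 0.993). That of Reg4 kept its sign at -0.26 (FDR 0.875). The sums hardly overlapped between the genotypes, so this covariate nearly follows genotype and the fit cannot separate them well. The part of epithelial RNA in the lower Reg values was not tested. Whether the effect of genotype differed between small intestine and colon tissue, or between ileum and duodenum in IECs or in γδ IELs, was tested as an interaction. None of 15 such tests was called (edgeR FDR 0.569 to 0.993 in tissue, 0.996 in IECs, and 0.716 to 0.802 in γδ IELs), with 0 at an unadjusted p below 0.05. DESeq2 likewise called 0, and 0.0193, 0, and 0% of all genes were called for an interaction. The IEC interaction includes the libraries labelled duodenal and ileal Btnl2-KO replicate 1, whose Fabp6 was unlike that of their segment.

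**Figure D5:**
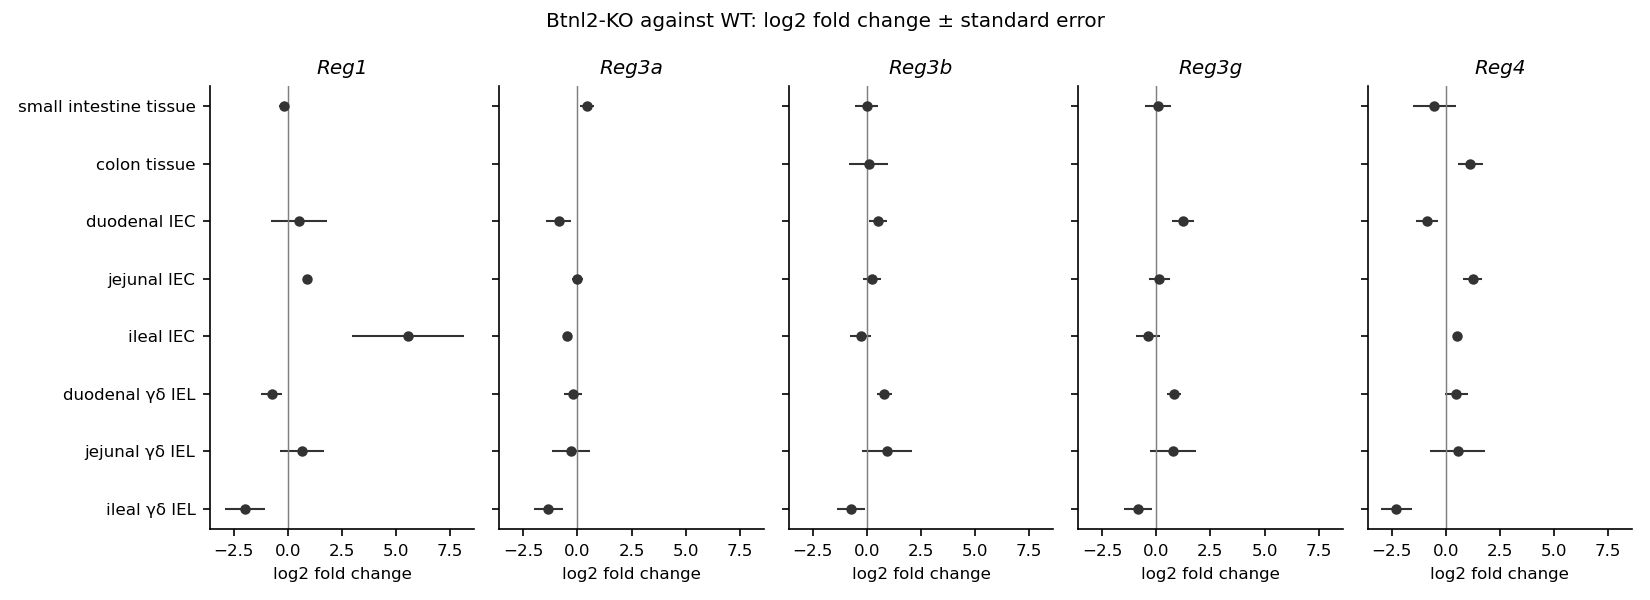
Log2 fold change of each Reg gene from WT to Btnl2-KO in the 8 comparisons. Points are edgeR estimates and lines are standard errors. None of the 37 estimates was called, and the widest error belongs to Reg1 in ileal IECs.

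Of 25 inducers and sensors that act upstream of Reg lectins, 22 were tested between WT small intestine and colon tissue, where 4 were higher and 3 lower in the colon, beside 27.6% of all genes called, with a median log2 fold change of -0.10 beside -0.02 over all genes. They included Il18, a cytokine of epithelium (3.13), Tlr4, the lipopolysaccharide receptor (1.54), Socs3, a Stat3 target that dampens its signal (-1.49), and the alarmin Il33 (-1.48). From duodenum to ileum in WT IECs, 3 of 19 rose, Tlr4 (4.31), Socs3 (1.73), and Tlr2 (1.11), and Il18 fell (-1.59), beside 4.42% of all genes called, with a list median of 0.23 beside -0.01 over all genes. From duodenum to jejunum 0 of 18 and from jejunum to ileum 0 of 19 were called, beside 0.32 and 1.13% of all genes. In γδ IEL libraries, Socs3 rose (1.79) and Il18 fell (-2.21) from duodenum to ileum, 2 of 15 tested, beside 2.16% of all genes called.

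Other antimicrobial products of the epithelium differed between the organs in both directions. Of 35 listed, 29 were tested between WT small intestine and colon, and 14 were lower and 6 higher in the colon. Beside them, 27.6% of all genes were called (15.6% lower). The list median of the log2 fold change was -0.82 beside -0.02 over all genes. The most changed were the lectin Itln1 (-9.07), the Paneth cell lysozyme Lyz1 (-7.88), Mptx2 (-7.10), and Nos2, the inducible nitric oxide synthase (-6.65). From duodenum to ileum in WT IECs, 8 of 26 rose and 0 fell, beside 4.42% of all genes called (2.78% higher). The list median was 0.74 beside -0.01 over all genes. The rise was led by the acute-phase protein Saa1 (9.68), Nos2 (3.71), the fucosyltransferase Fut2 (3.06), and Duoxa2 (2.84), the maturation factor of the oxidase Duox2. From jejunum to ileum 3 of 26 rose, Saa1 (5.89), Nos2 (1.56), and Fut2 (1.22), beside 1.13% of all genes called. From duodenum to jejunum 1 of 25 rose, Nos2 (2.17), beside 0.32%. In γδ IEL libraries 6 of 21 rose from duodenum to ileum, beside 2.16% of all genes called (1.15% higher). Among them were Duoxa2 (4.62), Ang4 (3.24), Mptx2 (3.06), and Lyz1 (2.92). Between Btnl2-KO and WT libraries, edgeR called 0 genes of either list in any of the 8 comparisons, with 14 of 143 tests of inducers and 19 of 195 tests of antimicrobial products at an unadjusted p below 0.05. These were uneven, with 10 of 22 inducers in small intestine tissue, where 23% of all genes had such a p, and 8 of 23 antimicrobial products in ileal γδ IELs, where 8.79% had.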

How the data were processed

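RNA-sequencing of 65 bulk libraries was analysed, and the 6 single-cell matrices were not used here. The values deposited are expected counts: the authors mapped reads to a customized mouse genome with ArrayStudio and estimated sense-strand exon reads per gene with RSEM, without normalization. GRCm38 is the build in the submitters' processing notes. The labels name a stranded mRNA kit and the study another, and which was used for these libraries is not settled. Estimation divides reads between similar genes, so 4.91% of γδ IEL, 17.0% of tissue, and 14.8% of IEC values were not whole. For Reg3b and Reg3g this held for 51.9% of tissue and 100% of IEC values. In the γδ IEL table, 1 column matched none of the samples and was dropped.

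Expected counts were rounded. Total counts were 13444958 to 30029485 (γδ IEL), 15397757 to 38258472 (IEC), and 13619309 to 21708721 (tissue) per library, and 100 identifiers without a symbol, kept in the library sizes and tests, took 0.253 to 9.24% of them. The lowest chi-square per degree of freedom between 2 libraries of a group was 5.28. Groups came from the labels, and p-values measure the spread between these libraries. Genes that reached 10 counts in enough libraries to fill the smaller group were tested with edgeR 4.0.16 (quasi-likelihood, TMM) in R 4.3.3, in 16 comparisons of 2 groups and 3 interactions. A call needed an FDR below 0.05 and, outside the interactions, a fold above 1.5. CPM values use TMM factors over all libraries of a table. Covariates were mean log2 CPM (limma 3.58.1, prior count 2). Transcript length, for values per kilobase, and promoters came from GRCm38.p6 references. Scripts were tested on simulated data. Alternatives were DESeq2 1.42.0, RLE size factors, no low-count filter, all libraries in 1 fit, no fold minimum, marker covariates, and each library left out. The 5 genes and all lists were chosen with earlier results of these data known. Named genes were the 5, Btnl2, list members by count with at most 4 examples (the called ones that changed most), and the 3 genes most like each of the 5, of which 1 is not reported here. Fabp6, Gata4, Ctrb1, Duox2, Retnlb, Lyz1, and Epcam were named after their values were seen.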

Additional observations from a re-analysis of the deposited data

Results flagged for a closer look

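Of 40 sets of 1 gene in 1 group of 4 to 10 libraries, 8 held a library whose gap to the nearest other exceeded Dixon's 95% critical value, which chance gives in about 1 in 20 sets. In 4 of the 8 every other library was at 0, so that any count would exceed it, and these are not set against chance. In the colon, Reg1 was 23.7 CPM in Btnl2-KO replicate 5 and 24.1 CPM in WT replicate 1, with 0 in the others. Reg3a was 0.0840 CPM in colon Btnl2-KO replicate 2 and 0.0434 CPM in colon WT replicate 5, each a single count (1), with 0 in the others. Reg4 was 54.6 CPM in colon WT replicate 3, and 190 to 329 in the others of its group. In small intestine tissue, Reg1 was 0.723 CPM (13 counts) in WT replicate 6 and 1.33 to 1.90 in the other WT libraries. In jejunal γδ IELs, Btnl2-KO replicate 2 held 3.75 CPM of Reg3b and 3.48 CPM of Reg3g, and the other 3 libraries 609 to 1247 and 481 to 938 CPM. That library was also the lowest of all γδ IEL libraries in pan-epithelial markers, whose part was not tested.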

How the results depend on the processing

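No paired analysis was possible because the labels give no shared replicate numbers. Between small intestine and colon, the calls of Reg3a, Reg3b, and Reg3g held under DESeq2, RLE size factors, no low-count filter, no fold minimum, all libraries in 1 fit, the acinar covariate, and with any 1 library left out. 0 Reg genes were called between Btnl2-KO and WT libraries under these settings or the pan-epithelial covariate (lowest FDR 0.0503, Reg1 in duodenal IECs without Btnl2-KO replicate 2). The cause of the changes below was not tested, and what limits these results is the small number of libraries per group in IECs and the low counts of Reg1, Reg3a, and Reg3g in colon.

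The number of Reg genes called depended on the fit in segment comparisons. DESeq2 called 2 from duodenum to jejunum and 4 from jejunum to ileum in WT IECs. With all libraries in 1 fit, 0 were called in each of the 3 segment comparisons of WT IECs and 1 in each of those of WT γδ IELs. The IEC fit includes the libraries labelled duodenal and ileal Btnl2-KO replicate 1, whose Fabp6 was unlike that of their segment. With 1 library left out, 0 to 1 were called from duodenum to jejunum and 1 to 4 from duodenum to ileum in IECs, and 1 to 3 from duodenum to jejunum and 1 to 3 from jejunum to ileum in γδ IELs.

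Over all genes, DESeq2 called 325 against 40 by edgeR from duodenum to jejunum, 1046 against 565 from duodenum to ileum, and 341 against 145 from jejunum to ileum in WT IECs, and 332 higher and 236 lower against 144 and 127 from duodenum to ileum in WT γδ IELs. Between Btnl2-KO and WT it called 184 against 3 in small intestine, 9 against 4 in colon, 1 against 0 in jejunal and 3 against 1 in ileal IECs, and 5 against 1, 2 against 1, and 227 against 0 in duodenal, jejunal, and ileal γδ IELs. The interactions gave 25 against 3 in tissue and 2 against 0 in γδ IELs. With all libraries in 1 fit, 0 genes were called between WT IEC segments or in ileal IECs, 220 between genotypes in small intestine, 2 in jejunal and 2 in ileal γδ IELs, 124 from duodenum to ileum and 1440 from jejunum to ileum in WT γδ IELs. No low-count filter gave 103 from duodenum to jejunum in IECs, 1 in duodenal IECs between genotypes, and 9 for the tissue interaction. No fold minimum gave 7115 (WT) and 7562 (Btnl2-KO) between the organs, and 4478 from duodenum to jejunum and 4275 from jejunum to ileum in γδ IELs. The acinar covariate gave 1099 from duodenum to ileum in IECs.

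Log2 fold changes that turned sign were mostly small or rested on few libraries. With the acinar covariate, Reg1 from small intestine to colon was -8.15 in WT and -8.01 in Btnl2-KO, Reg3g from WT to Btnl2-KO in small intestine -0.30, and Reg3a in duodenal IECs 0.018. Reg1 from small intestine to colon was -3.74 in Btnl2-KO with DESeq2, and -7.62 in WT without the colon library that holds acinar transcripts and the small intestine library high in Gata4, an alternative chosen after seeing the data. Where the colon libraries left are all at 0, such a fitted value depends on the prior count and is no bound. Without the 2 libraries high in Gata4, also chosen after seeing the data, Reg3b in small intestine was 0.044. Reg3a in jejunal IECs was -0.00032 with DESeq2, -0.0103 without the low-count filter, and -0.0105 with all libraries in 1 fit. With the pan-epithelial covariate, in γδ IELs, Reg4 from duodenum to ileum was -0.55 and Reg3a from jejunum to ileum -0.19. From WT to Btnl2-KO, Reg3a in the jejunum was 0.040, and in the ileum Reg1 was 0.22, Reg3a 0.13, Reg3b 0.34, and Reg3g 0.028.

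Leaving out 1 library gave a range of log2 fold changes that crossed 0 in the following. From small intestine to colon, Reg1 was -7.67 to 1.81 in WT and -7.28 to 1.70 in Btnl2-KO, and Reg4 -0.74 to 0.58 in Btnl2-KO. Reg3a from jejunum to ileum in IECs was -0.26 to 0.24. From WT to Btnl2-KO in tissue, small intestine Reg3b was -0.30 to 0.40, Reg3g -0.23 to 0.61, and Reg4 -1.19 to 0.58, and colon Reg3b -0.056 to 0.30. In duodenal IECs Reg1 was -5.44 to 1.49 and Reg3b -0.067 to 0.93. In jejunal IECs Reg3a was -0.19 to 0.29, Reg3b -0.26 to 0.58, and Reg3g -0.66 to 0.52. In ileal IECs Reg1 was -0.021 to 6.12, Reg3b -0.55 to 0.088, and Reg3g -0.66 to 0.0094. In duodenal γδ IELs Reg3a was -0.46 to 0.17 and Reg4 -0.30 to 0.79. In jejunal γδ IELs Reg3a was -1.04 to 0.11 and Reg4 -0.63 to 1.51. In ileal γδ IELs Reg3b was -1.17 to 0.0017 and Reg3g -1.22 to 0.076.

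Among correlations across small intestine libraries, Reg1 with Reg4 was -0.098 without the 2 libraries farthest from the median and 0.672 without those high in Gata4, where it passed the threshold (adjusted p 0.0397, permutation test). Under the same settings, Reg3a with Reg3b was 0.139 and 0.317, and Reg3a with Reg3g 0.059 and 0.229. Reg3b with Reg4 was -0.857 without those high in Gata4, and Reg3g with Reg4 was -0.533 on raw CPM (adjusted p 0.239) and -0.618 without the 2 farthest (adjusted p 0.112), past the threshold in neither.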
